A study of Mus musculus with 18 samples.

Results

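The genes described here are the replication-dependent H2A and H2B histone genes of the mouse. They were taken as the rows of the gene count table whose symbol is H2ac or H2bc followed by a number, or whose older symbol begins with Hist1h2, Hist2h2 or Hist3h2 and then a or b, and 3 annotated pseudogenes were left out. This gave 36 of 27179 genes, 18 for H2A and 18 for H2B. Of these, 28 lie in the large histone cluster on chromosome 13, 6 on chromosome 3 and 2 on chromosome 11. The older symbol alone matched 3 of them, H2aw, H2bu2 and Hist1h2br, and the last is given here under its older name.

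RNA was sequenced from half-brains of 18 wild-type C57BL/6J mice, a standard inbred strain, given glyphosate or vehicle by oral gavage daily, beginning when the mice were 4 months old and lasting 14 days. Vehicle mice received the neutralized sodium hydroxide solution alone. There were 5 vehicle mice (2 males, 3 females), 5 mice (3 males, 2 females) that received 125 mg/kg, 4 mice (3 males, 1 female) that received 250 mg/kg and 4 mice (2 males, 2 females) that received 500 mg/kg. Each library is 1 mouse, named here by the G number of its sample title. The comparisons ask how expression in the brain changes with the dose of this herbicide. Libraries were made from total RNA after ribosomal RNA was removed, so transcripts with and without a poly(A) tail were counted.

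H2A and H2B pair as dimers, which join H3 and H4 in the nucleosome, the particle around which DNA is wrapped. Replication-dependent histone genes lie in clusters, have no or few introns and are transcribed mainly in S phase, when new DNA must be packaged. Their messenger RNAs end in a conserved stem-loop in place of a poly(A) tail, and the stem-loop binding protein Slbp controls their processing, translation and decay. Most cells of the adult brain no longer divide, but some of these genes are also known to give polyadenylated transcripts in differentiated cells.

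The stem-loop was searched in the annotated transcripts because it sets these messages apart from other messenger RNAs. It was found in 21 of 36 members, with the same 16 bases in 18 of them and with 1 changed base in the loop in H2bc12, H2bc3 and H2ac20. Examples from the GENCODE transcripts are given 5′ to 3′ with the stem-loop in capitals.
H2ac18: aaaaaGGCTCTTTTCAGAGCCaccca
H2aw: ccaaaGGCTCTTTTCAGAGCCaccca
H2bc6: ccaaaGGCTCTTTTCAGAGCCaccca
H2bc3: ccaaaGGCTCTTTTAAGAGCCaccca
H2ac20: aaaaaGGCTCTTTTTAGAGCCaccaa
H2bc6, H2aw, H2ac6 and H2bc9 have annotated transcripts that run on for 1861, 1643, 2010 and 1214 bases past the stem-loop. It was not found in the other 15 members. Some of these, H2ac22 and H2bc15 among them, have annotated transcripts that stop at the end of the coding sequence, so these letters could not be looked for, whereas H2bc21, H2bc4, H2bc23 and Hist1h2br have 2192, 742, 1608 and 1803 bases after the stop codon in their longest transcript. Only a window just after the stop codon was searched, so a stem-loop farther along would have been missed.

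H2A and H2B genes often stand head to head, and 10 such pairs were less than 500 bases apart. The space between the gene starts of 3 pairs is shown on the plus strand of GRCm38 (RefSeq annotation), the first 2 because they hold the members with the smallest p-values of the dose regression and the third because it holds all of the motifs searched. Capitals mark the CCAAT box (CCAAT or ATTGG), the TATA box (TATAAA or TTTATA) and the octamer (ATTTGCAT or ATGCAAAT), which is known from H2B promoters.
H2ac22 and H2bc22, chr13:21787249-21787482: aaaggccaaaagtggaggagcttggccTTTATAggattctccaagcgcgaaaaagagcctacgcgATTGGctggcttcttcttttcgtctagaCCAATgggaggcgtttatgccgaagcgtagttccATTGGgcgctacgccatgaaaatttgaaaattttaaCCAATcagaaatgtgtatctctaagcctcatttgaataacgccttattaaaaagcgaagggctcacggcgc
H2ac15 and H2bc15, chr13:21753913-21754075: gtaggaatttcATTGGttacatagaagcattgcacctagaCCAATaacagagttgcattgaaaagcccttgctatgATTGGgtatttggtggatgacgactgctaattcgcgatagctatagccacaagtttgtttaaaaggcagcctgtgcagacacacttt
H2ac8 and H2bc8, chr13:23571221-23571399: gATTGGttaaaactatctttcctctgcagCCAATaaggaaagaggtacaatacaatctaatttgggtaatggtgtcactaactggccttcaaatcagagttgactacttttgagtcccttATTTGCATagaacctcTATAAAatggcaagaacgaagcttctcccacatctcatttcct
In RefSeq promoters of 300 bases, which 34 members had, CCAAT was present on either strand in 18 of 18 H2A and 16 of 16 H2B members, against 37.9% of 27025 promoters of all genes. TATAAA was present in 11 H2A and 8 H2B members, against 14.2%, and ATTTGCAT in 7 H2A and 6 H2B members, against 1.75%. Both sides of a pair share their promoter letters in part, so these are not separate counts.

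The members are also much alike in their transcripts. Of 36 members, 16 shared the larger part of their 100-base stretches, the length of a read, with another member, and only 5 (H2bc21, H2bc18, H2bu2, H2aw and H2ac1) shared none. H2ac18 and H2ac19, which hold the same 429 stretches in common, had 469 to 1391 and 456 to 1357 reads, and the 2 counts were never more than 3.94% apart in a mouse. H2ac23 and H2ac24 had the same count in 14 of 18 mice and differed by 1 read at most. H2bc23 and Hist1h2br were equal in 9 mice and differed by at most 5 reads. How reads that match several copies were assigned is not given in the sources used here, so a count of members called is not a count of independent genes.

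**Figure D1:**
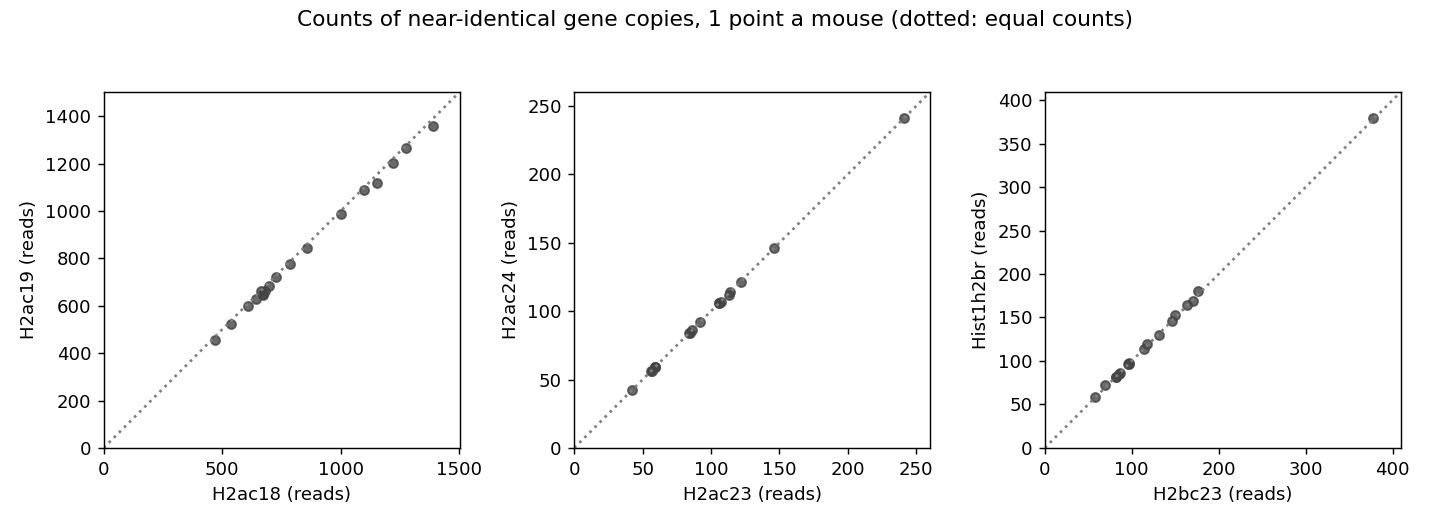
Reads counted for 3 pairs of near-identical copies, 1 gene on each axis and 1 point for each of the 18 mice, with a dotted line where both counts are equal. The points of H2ac23 and H2ac24 and of H2bc23 and Hist1h2br lie on the line or within 5 reads of it, and those of H2ac19 lie just under it.

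Total counts per mouse ran between 3948096 and 11732885, of which the members took 0.0448% to 0.0792%. Levels are given as CPM, read counts scaled to library size after TMM normalization. Counts of single members were low: H2ac18 had a median of 713.5 reads in a mouse, H2aw 547.5, H2ac22 31 and H2bc14 7. Per kilobase of the longest annotated transcript, H2ac19 (202 CPM) and H2ac18 (185 CPM) stood above all other members, of which H2bc18 (43.9 CPM), H2bu2 (43.0 CPM) and H2bc8 (42.4 CPM) came next and could not be ordered beyond the spread between mice. Of the 36 members, 33 passed the filter on low counts. H2ac1 and H2ac10 had 0 reads in every mouse, which allows up to 3 reads in a library, and H2bc1 had 20 reads over all mice and at most 4 in one. Of the 100-base stretches of H2ac10, 65.3% also occur in H2ac7, which had 38 to 242 reads in a mouse. The 0 of H2ac10 therefore holds only for reads as they were assigned. H2ac1 and H2bc1 are known as the testis forms TH2A and TH2B. The libraries of 500 mg/kg mouse G4 and vehicle mouse G9 stood apart, with median correlations with all others of 0.943 and 0.942, where the remaining 16 libraries had 0.959 to 0.975. Results that changed without them are given both ways. Sample titles also carry a mouse tag number between 41 and 46, whose meaning the labels do not state and which goes with dose in part, all 250 mg/kg mice having 45.

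The dose regression fitted a straight line through the 4 doses with sex as a covariate, and its slope is the log2 change per 500 mg/kg. No member passed with edgeR's quasi-likelihood test after adjustment over the 15863 genes tested, against 7 genes with a falling slope in all (0.0441%). DESeq2 called 3 members (H2bc15, H2ac22 and H2aw), among 229 of 23017 genes in all and against 46 of 15863 with edgeR in either direction, and limma-voom called no member. All 33 slopes were negative, against 48.8% of all genes, with a median of -0.64 and a range of -1.46 to -0.22, where the median of all genes was 0.01. At an unadjusted p under 0.05 there were 18 members, all with a negative slope, against 5.28% of all genes in that direction, and without mouse G4 there were 9. With the mouse tag number as a block there were 4, and in males alone 5, while over all genes in either direction there were 2091 of 15863, 369 of 15863 with the block, 1253 of 16048 in males and 1324 of 16078 without G4.

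H2bc15 (Entrez 319187, chr13:21754076-21754553) and H2ac22 (Entrez 319170, chr13:21786774-21787248) had the steepest slopes. H2bc15, an H2B gene, measured 4.997, 4.76, 6.95, 6.003 and 3.94 CPM in the vehicle mice, 4.02, 7.33, 7.55, 5.01 and 4.04 CPM at 125 mg/kg, 2.53, 3.85, 2.73 and 5.41 CPM at 250 mg/kg and 2.02, 2.31, 1.55 and 2.90 CPM at 500 mg/kg. The 500 mg/kg mice lay below all vehicle mice and all 125 mg/kg mice, and the 250 mg/kg mice overlapped both sides. Its slope was -1.43 ± 0.32 (SE), adjusted p = 0.058 with edgeR. H2ac22, an H2A gene, measured 4.37, 3.38, 5.65, 5.49 and 3.79 CPM in the vehicle mice, 4.13, 7.16, 5.35, 5.98 and 5.19 CPM at 125 mg/kg, 3.55, 3.85, 2.36 and 4.53 CPM at 250 mg/kg and 1.77, 1.60, 2.06 and 1.98 CPM at 500 mg/kg. The 4 mice at 500 mg/kg lay between 1.60 and 2.06 CPM and below every mouse of the other 3 groups. Its slope was -1.46 ± 0.33 (SE), adjusted p = 0.058 with edgeR.

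H2aw (Entrez 319162, chr11:58954685-58955192), an H2A gene on chromosome 11 that shares no 100-base stretch with another member, had the third smallest p. It measured 77.3, 83.8, 92.7, 82.8 and 78.9 CPM in the vehicle mice, 70.4, 60.1, 89.9, 83.3 and 67.2 CPM at 125 mg/kg, 85.9, 64.2, 68.8 and 78.9 CPM at 250 mg/kg and 56.7, 63.3, 55.6 and 70.6 CPM at 500 mg/kg. The mice at 500 mg/kg lay below all vehicle mice and overlapped with the 125 and 250 mg/kg mice. The slope was -0.44 ± 0.11 (SE), adjusted p = 0.094 with edgeR. H2bu2, the H2B gene beside it on chromosome 11, had a slope of -0.32 ± 0.16 (SE), adjusted p = 0.40 with edgeR.

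H2bc6 (Entrez 319179, chr13:23583670-23621124) measured 16.4, 15.971, 19.9, 23.1 and 23.5 CPM in the vehicle mice, 18.8, 21.5, 21.9, 18.8 and 19.3 CPM at 125 mg/kg, 24.8, 10.8, 11.9 and 16.5 CPM at 250 mg/kg and 14.4, 12.977, 12.3 and 14.2 CPM at 500 mg/kg. One mouse at 250 mg/kg was higher than every other mouse, while the 500 mg/kg mice lay below all vehicle and all 125 mg/kg mice. The slope was -0.61 ± 0.18 (SE), adjusted p = 0.16 with edgeR. H2bc3 (Entrez 319178, chr13:23746734-23747223) measured 4.997, 4.44, 6.24, 7.79 and 4.23 CPM in the vehicle mice, 5.87, 6.14, 3.93, 5.57 and 7.16 CPM at 125 mg/kg, 3.29, 3.23, 3.23 and 4.53 CPM at 250 mg/kg and 2.65, 2.31, 3.61 and 4.48 CPM at 500 mg/kg. The groups overlapped at every dose, and the slope was -0.91 ± 0.28 (SE), adjusted p = 0.18 with edgeR.

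**Figure D2:**
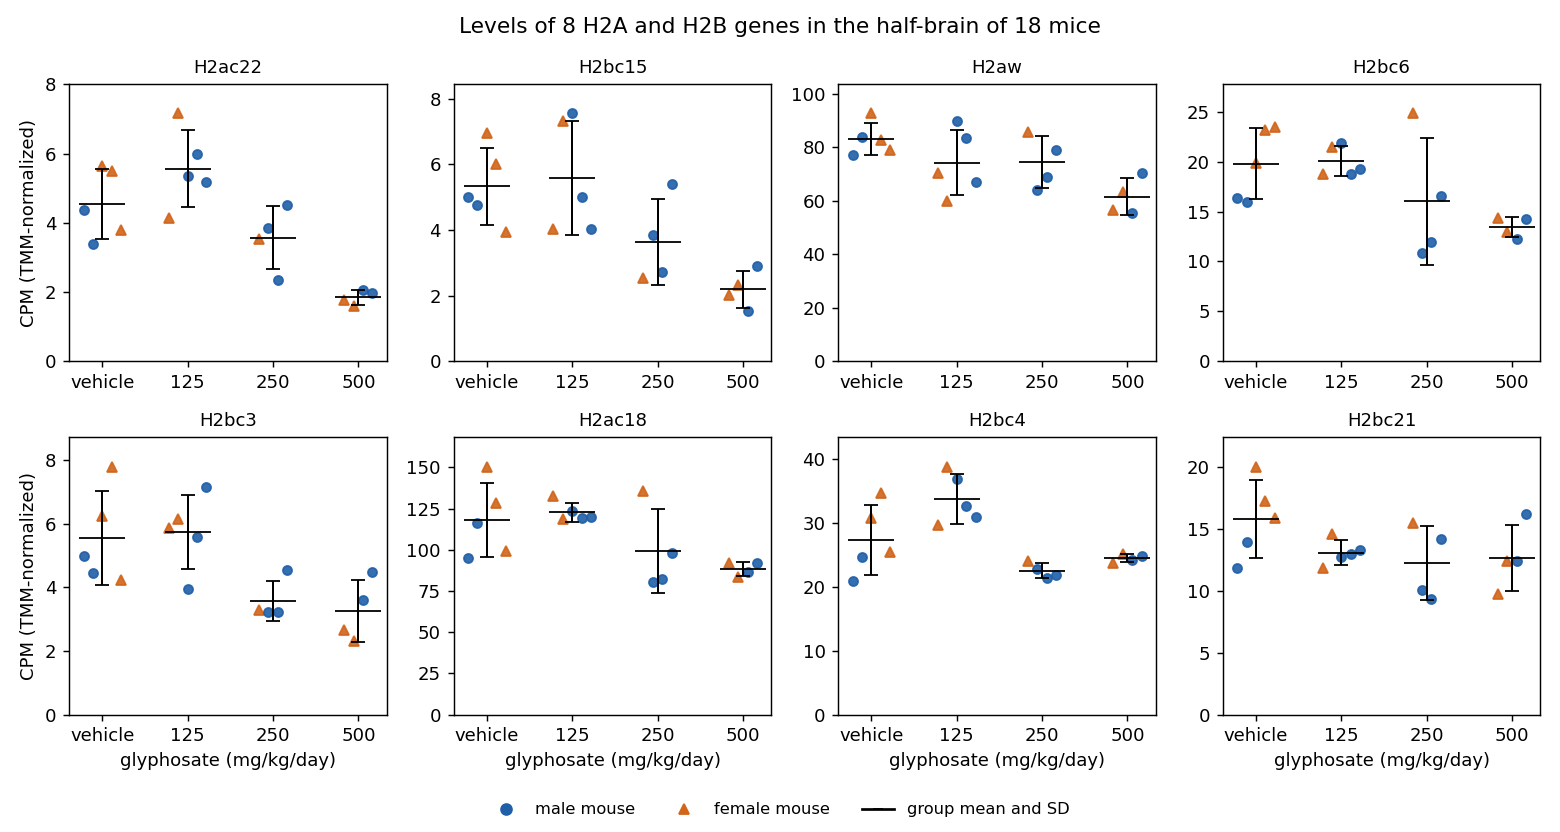
Levels of 8 members in CPM (vertical axes, from 0) by daily dose (horizontal axes), with 1 point per mouse, circles for males, triangles for females, and the mean and SD of each group in black. H2ac22 and H2bc15 averaged 1.85 and 2.19 CPM at 500 mg/kg, and H2bc4 was highest at 125 mg/kg with a mean of 33.8 CPM.

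H2ac18 (Entrez 15267, chr3:96245497-96246052) and H2ac19 (Entrez 319192, chr3:96239779-96240374) were the most abundant members, and together they are close to 1 measurement. H2ac18 measured 95.3, 116, 150.4, 128 and 99.4 CPM in the vehicle mice, 133, 119, 124, 119 and 119.7 CPM at 125 mg/kg, 136, 80.2, 82.5 and 98.3 CPM at 250 mg/kg and 91.7, 83.4, 86.6 and 92.2 CPM at 500 mg/kg. All 500 mg/kg mice were below all vehicle mice and all 125 mg/kg mice, and 1 mouse at 250 mg/kg lay above all 125 mg/kg mice. The slope was -0.49 ± 0.15 (SE), adjusted p = 0.18 with edgeR. H2ac19 measured 93.4, 115, 149, 126 and 96.8 CPM in the vehicle mice, 131, 116, 122, 117 and 116 CPM at 125 mg/kg, 132, 78.3, 82.1 and 94.5 CPM at 250 mg/kg and 90.985, 81.1, 83.9 and 89.8 CPM at 500 mg/kg, with a slope of -0.50 ± 0.15 (SE) and an adjusted p = 0.18 with edgeR. H2bc4 (Entrez 68024, chr13:23684199-23692480) measured 20.9, 24.7, 30.9, 34.7 and 25.5 CPM in the vehicle mice, 29.8, 38.9, 36.954, 32.7 and 30.9 CPM at 125 mg/kg, 24.1, 22.8, 21.4 and 21.9 CPM at 250 mg/kg and 23.7, 25.2, 24.3 and 24.9 CPM at 500 mg/kg. The 125 mg/kg mice were above every 250 and 500 mg/kg mouse but overlapped with the vehicle mice. Its slope was -0.33 ± 0.20 (SE), adjusted p = 0.48 with edgeR.

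H2bc21 (Entrez 319190, chr3:96221072-96223738), known as the H2B variant of olfactory and other neurons, measured 11.9, 13.961, 20.024, 17.2 and 15.9 CPM in the vehicle mice, 11.8, 14.6, 12.7, 12.9 and 13.3 CPM at 125 mg/kg, 15.5, 10.1, 9.31 and 14.2 CPM at 250 mg/kg and 9.72, 12.4, 12.4 and 16.2 CPM at 500 mg/kg. The groups overlapped at every dose, and the slope was -0.29 ± 0.17 (SE), adjusted p = 0.48 with edgeR. It shares no 100-base stretch with the other members.

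The highest dose was next set against the lowest. The fit held all mice, so vehicle mice still entered the estimates of spread and of sex. H2ac22 was lower at 500 mg/kg with a log2 change of -1.67 ± 0.25 (SE), a fold of 0.314, adjusted p = 0.0165 with edgeR. It was the only member called, and the 3 genes that fell among all genes tested (0.0189%) were H2ac22 and the H4 genes H4c1 and H4c6. It averaged 1.85 ± 0.21 CPM at 500 mg/kg and 5.56 ± 1.11 CPM at 125 mg/kg (SD, n = 4 and 5). Its counts were few, between 9 and 84 reads in a mouse, and 83.3% of its 100-base stretches occur in another member. The call was lost without any 1 of the mice G4, G29, G79, G87 and G90, with adjusted p = 0.093, 0.065, 0.058, 0.062 and 0.052 from edgeR, and without both G4 and G9 (adjusted p = 0.077), while the log2 change stayed between -1.78 and -1.54 without any 1 mouse. With only the 2 groups compared, the fit that holds no vehicle mouse, it was also lost (-1.69, adjusted p = 0.088 with edgeR).

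The other members lay the same way, although none passed. All 33 log2 changes were negative, against 46.3% of all genes, with a median of -0.87 and a range of -1.67 to -0.15, where the median of all genes was 0.03. Every 500 mg/kg mouse lay below every 125 mg/kg mouse in 18 of 33 members, against 1.7% of all genes. At an unadjusted p under 0.05 there were 26 members, all lower, against 8.4% of all genes in that direction. The number called depended on the tool and the mice. DESeq2 called 19 members and limma-voom H2ac22 (adjusted p = 0.034), while edgeR called 11 without vehicle mouse G9, 11 without 125 mg/kg mouse G45, 6 without vehicle mouse G15 and 4 without vehicle mouse G1. Calls over all genes in the same fits, in either direction, were 5 of 15863 with all mice, 563 of 23020 with DESeq2, 179 of 15775 without G9, 285 of 15823 without G45, 51 of 15817 without G15 and 45 of 15803 without G1.

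H2ac8, H2ac12 and H2ac4, H2A genes of the chromosome 13 cluster that were chosen after their values were seen, came next with adjusted p = 0.051 each with edgeR. H2ac8 measured 6.56, 6.93, 6.58 and 8.69 CPM at 500 mg/kg, against 11.7, 19.9, 20.1, 13.1 and 13.9 CPM at 125 mg/kg. The groups did not overlap, and the log2 change was -1.22 ± 0.24 (SE). H2ac12 measured 5.55, 4.44, 5.16 and 6.32 CPM at 500 mg/kg, against 9.02, 17.6, 16.2, 10.9 and 10.993 CPM at 125 mg/kg, a log2 change of -1.35 ± 0.27 (SE). H2ac4 measured 5.55, 4.62, 6.84 and 8.30 CPM at 500 mg/kg, against 15.2, 21.4, 16.4, 11.5 and 11.4 CPM at 125 mg/kg, a log2 change of -1.36 ± 0.27 (SE). Of their 100-base stretches 22.1%, 74.2% and 39.8% also occur in H2ac22.

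**Figure D3:**
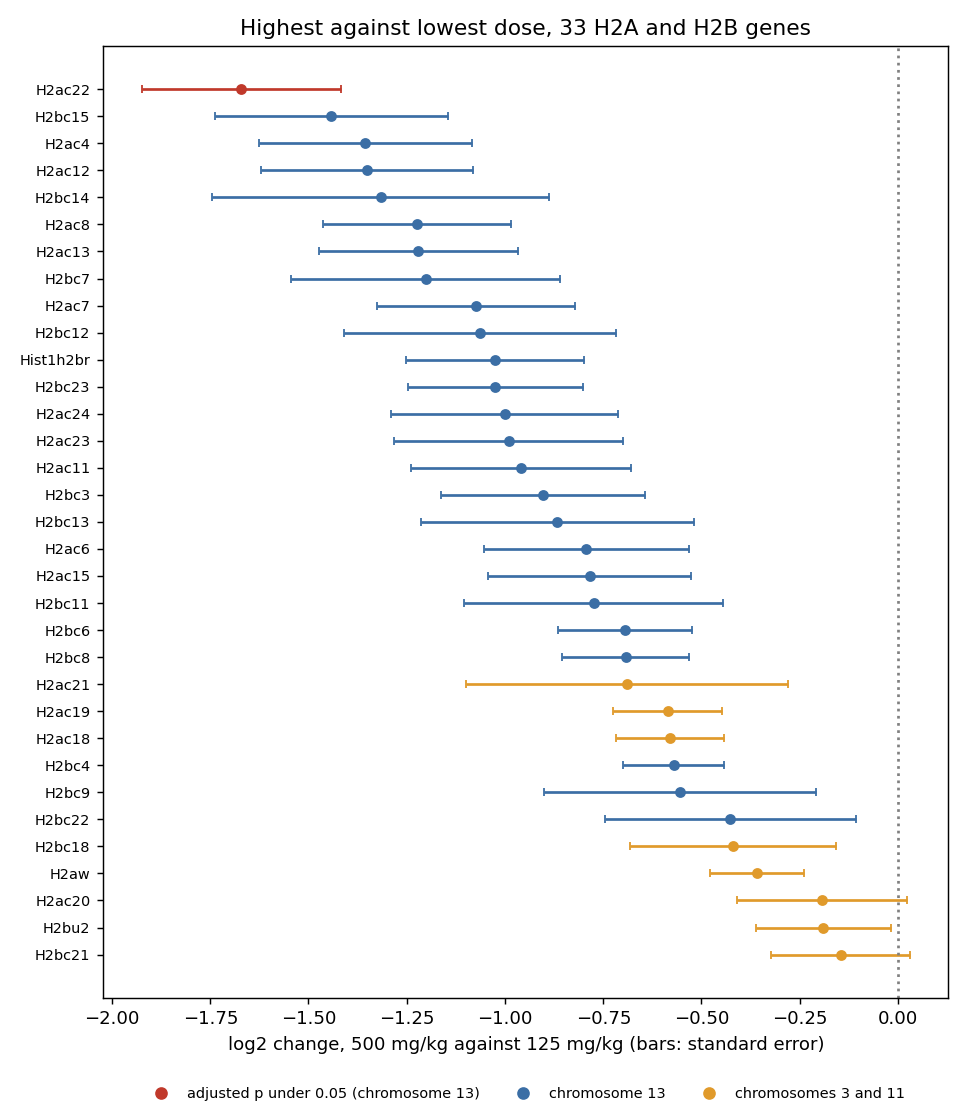
Log2 change of the 33 members tested at 500 mg/kg against 125 mg/kg (horizontal axis), 1 row per gene, with bars for the standard error and colours for the chromosome and the 1 gene with an adjusted p under 0.05. All points lie below 0, between -1.67 for H2ac22 and -0.15 for H2bc21.

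The 3 comparisons with vehicle share the same 5 vehicle mice, so their values are given side by side. At 500 mg/kg no member fell past the threshold, and no gene of all those tested did (0%). The median change was -0.45, 32 of 33 were negative (50.2% of all genes), and 12 members had an unadjusted p under 0.05, all lower (4.07%). Without 500 mg/kg mouse G79 there were 5 such members and without both G4 and G9 7, while over all genes in either direction there were 1836 of 15863 with all mice, 2473 of 16043 without G79 and 1413 of 16014 without G4 and G9. DESeq2 called H2aw, H2bc15 and H2ac22, among 166 of 23020 genes. The 4 mice lay below all 5 vehicle mice in 6 members, H2ac22, H2bc15, H2aw, H2bc6, H2ac18 and H2ac19, against 0.845% of all genes. H2ac22 had a log2 change of -1.26 ± 0.26 (SE), adjusted p = 0.088 with edgeR, and H2bc15 one of -1.28 ± 0.30 (SE), adjusted p = 0.125 with edgeR.

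At 250 mg/kg no member and no gene in all was called (0%). The median change was -0.22, 30 of 33 were negative (50.1% of all genes), and only H2bc3 had an unadjusted p under 0.05 (1.56% of all genes in that direction). Without 250 mg/kg mouse G49, 8 members did, with 786 of 16067 genes in all against 596 of 15863. Without any other 1 mouse 0 to 3 members did. G49 was the only female of its group and had the lowest total counts of all mice (3948096). It also had the highest H2ac18 and H2bc6 of its group. DESeq2 called no member and no gene.

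At 125 mg/kg again no member and no gene was called (0%). The median change was 0.37, 29 of 33 were positive (49.8% of all genes), and 11 members had an unadjusted p under 0.05, all higher than in vehicle mice (4.66%). There were 6 without G29, and 7 without G5 or without G18, with 1773 of 15863 genes in all, 1227 of 15820 without G29, 1536 of 15831 without G5 and 1443 of 15836 without G18 in either direction. DESeq2 called no member, among 40 of 23020 genes called. H2bc4 had a log2 change of 0.44 ± 0.12 (SE), adjusted p = 0.32 with edgeR, and H2bc11, named for the largest change, had 0.94 ± 0.32 (SE), adjusted p = 0.34 with edgeR. Of the 33 members, 28 had their highest mean at 125 mg/kg and 5 in vehicle mice, while 28 had their lowest at 500 mg/kg and the remaining 5 did at 250 mg/kg. This order was not counted over all genes, and many members share reads. The H1, H3 and H4 genes described below also had a positive median change at 125 mg/kg against vehicle (0.27).

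The test for any difference among the 4 groups called no member, against 7 genes in all (0.0441%), with 25 members at an unadjusted p under 0.05 against 15% of all genes. H2ac22 had the smallest p (adjusted p = 0.077 with edgeR), and DESeq2 called 15 members, among 540 of 23021 genes. The test of whether the group means left that line also called no member, against 1 gene in all (0.0063%), with 18 members at an unadjusted p under 0.05 against 11.7% of all genes and 11 without G18 or without G29, where 1575 of 15836 and 1290 of 15820 genes did. H2bc4 had the smallest p there (adjusted p = 0.18 with edgeR), and DESeq2 called H2bc4, H2ac4, H2bc23 and Hist1h2br, among 148 of 23021 genes.

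The chromosome 13 members and the others differed in their values at the lowest dose. At 125 mg/kg against vehicle the median log2 change was 0.45 for the 25 members tested on chromosome 13, each of which was positive (0.14 to 0.94), and 0.03 for the 8 on chromosomes 3 and 11 (-0.14 to 0.32). At 500 mg/kg against vehicle the medians were -0.50 and -0.35, and at 500 mg/kg against 125 mg/kg they were -1.001 and -0.39. Of the 31 members that share stretches 27 are on chromosome 13, and the difference between the chromosomes was not tested.

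**Figure D4:**
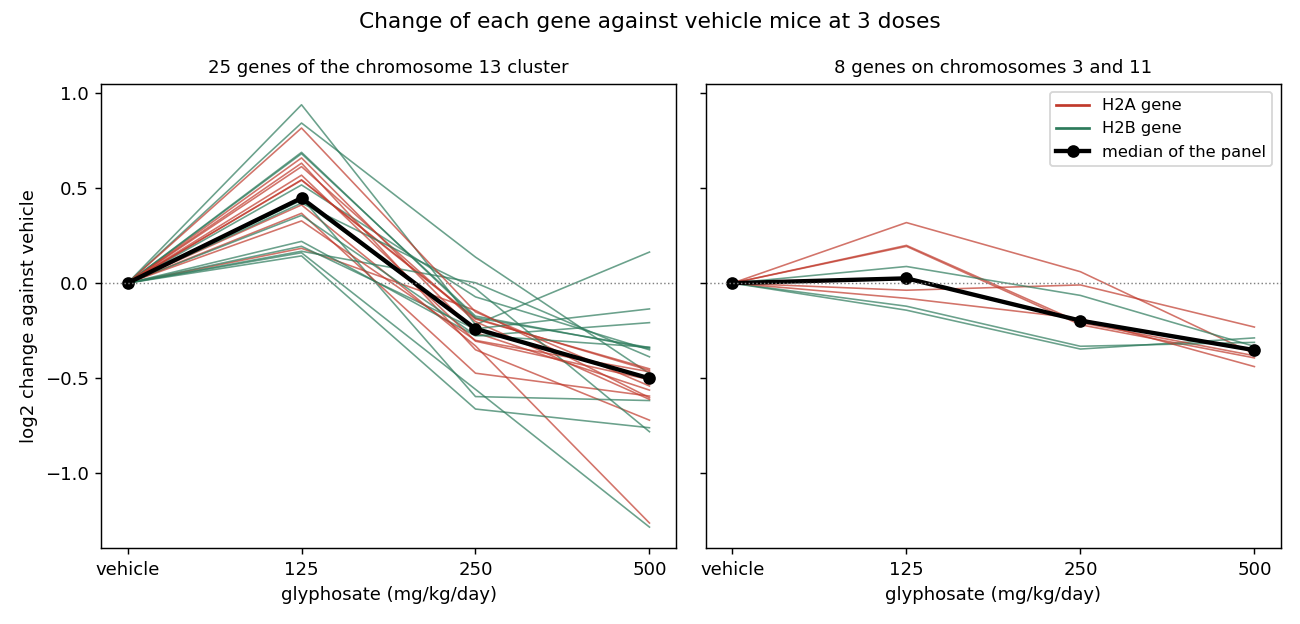
Log2 change of each member tested against vehicle mice (vertical axis) by dose (horizontal axis), with the chromosome 13 cluster on the left, chromosomes 3 and 11 on the right, H2A genes in red, H2B genes in green and the median in black. The left median is 0.45 at 125 mg/kg and -0.50 at 500 mg/kg, and the right one 0.03 and -0.35.

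Summed over all members, where shared reads may count more than once, the level was 648 ± 95.98 CPM in vehicle mice (SD, n = 5). It was 709 ± 65.6 CPM after 125 mg/kg (SD, n = 5), 549.7 ± 115 CPM after 250 mg/kg (SD, n = 4) and 483 ± 34.3 CPM after 500 mg/kg (SD, n = 4). The chromosome 13 sum was 195 to 309 CPM in vehicle mice, 254 to 391 CPM at 125 mg/kg, 152 to 239 CPM at 250 mg/kg and 156 to 196 CPM at 500 mg/kg. The 500 mg/kg mice overlapped with the vehicle mice by 1 mouse and lay below all 125 mg/kg mice. On chromosomes 3 and 11 the sum was 330.1 to 500.011 CPM in vehicle mice, 361 to 418 CPM at 125 mg/kg, 281 to 465 CPM at 250 mg/kg and 283 to 334 CPM at 500 mg/kg. Mouse G4 summed to 454 CPM over all members and the other 500 mg/kg mice to 462 to 529.9 CPM. In bulk tissue, fewer cells of a type and less RNA per cell cannot be told apart.

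**Figure D5:**
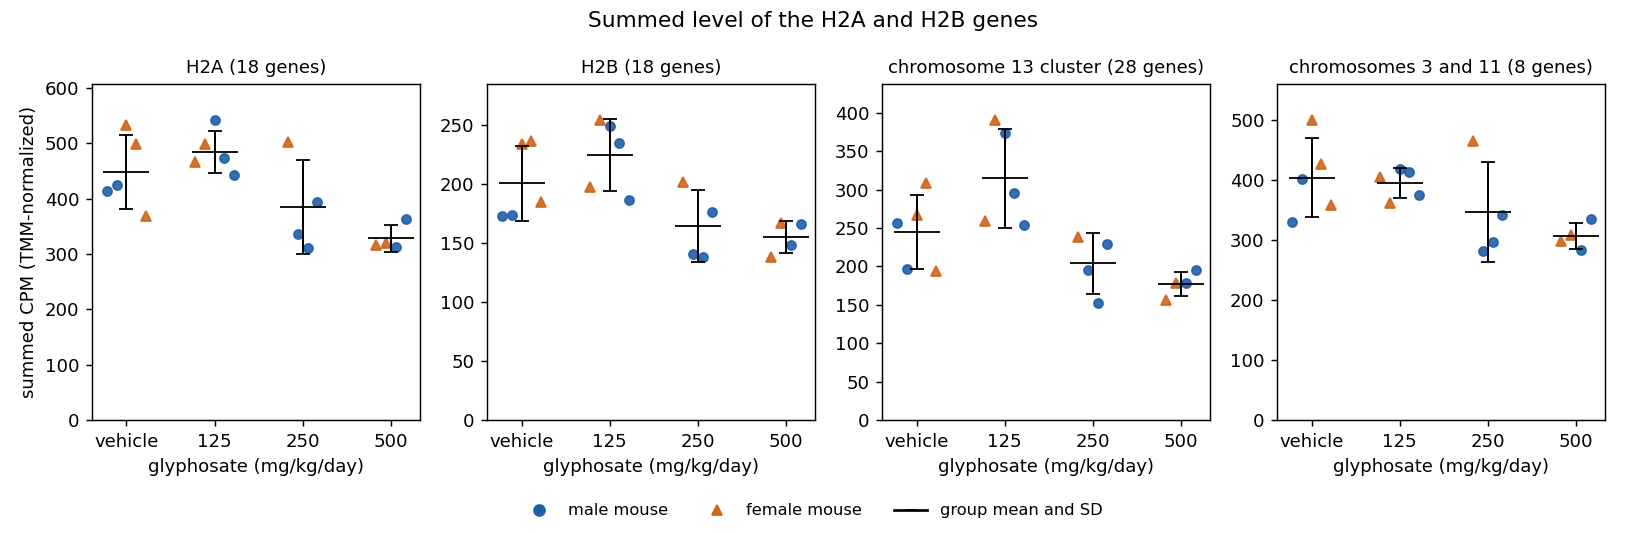
Summed CPM of the members (vertical axes, from 0) by daily dose (horizontal axes) for the H2A genes, the H2B genes, the chromosome 13 cluster and chromosomes 3 and 11, with 1 point per mouse and the mean and SD of each group. The H2A sum averaged 328 CPM at 500 mg/kg and 448 CPM in vehicle mice, and the H2B sum 155 and 200.2 CPM.

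The H2A and H2B genes of a head-to-head pair did not always have like values. In the pair shown above, H2ac22 had a log2 change of -1.67 at 500 mg/kg against 125 mg/kg and H2bc22 one of -0.43 ± 0.32 (SE), adjusted p = 0.49 with edgeR. H2bc22 measured 1.77, 2.13, 3.61 and 2.37 CPM at 500 mg/kg, against 3.37, 4.01, 2.67, 2.64 and 3.01 CPM at 125 mg/kg, and these groups overlapped. H2bc15 had -1.44 and its partner H2ac15 -0.78. H2ac8 had -1.22 and H2bc8 -0.69. In 9 of the 10 pairs both genes were tested, and in each of these both changes were negative, as in all 33 members tested. Like signs in a pair therefore say nothing about the pairing. The pair of H2bc23 and H2ac23 and that of Hist1h2br and H2ac24 are also near-identical copies.

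Male and female mice were compared by the interaction of dose and sex. No member and no gene in all was called (0%), and 2 members, H2bc22 and H2bc21, had an unadjusted p under 0.05 (1.65% of all genes), while 1 to 4 did without any 1 mouse and 0 without both G4 and G9. DESeq2 called no member. In females alone all 33 slopes were negative with a median of -0.68, and in males alone 31 were, with a median of -0.56. H2ac22 had a log2 change at 500 mg/kg against 125 mg/kg of -1.92 in females (adjusted p = 0.37 with edgeR) and -1.51 in males (adjusted p = 0.48).

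Genes around the members were taken from lists. Of the other replication-dependent histones (H1, H3 and H4), 30 of 31 were tested. All 30 had a negative slope (48.8% of all genes) with a median of -0.54, and 0 passed. At an unadjusted p under 0.05 there were 16, all lower, against 5.28% of all genes in that direction. At 500 mg/kg against 125 mg/kg there were 27, all lower, against 8.4%. At 125 mg/kg against vehicle their median change was 0.27, with 2 of 30 negative (50.2% of all genes). There 9 had an unadjusted p under 0.05, all higher (4.66%). At 500 mg/kg against 125 mg/kg 2 of them fell, the H4 genes H4c1 (-1.002 ± 0.12, SE, adjusted p = 0.0018 with edgeR) and H4c6 (-1.17 ± 0.17, SE, adjusted p = 0.0095). Their summed level was 1034 to 1554 CPM in vehicle mice, 1175 to 1523 CPM at 125 mg/kg, 885 to 1377 CPM at 250 mg/kg and 768 to 1096 CPM at 500 mg/kg. Replication-independent histones had 12 genes tested, of which none passed, with a median slope of -0.14. Of these, 1 had an unadjusted p under 0.05, against 13.2% of all genes in either direction. H2az1, the H2A.Z gene used outside S phase, had a slope of -0.57 (adjusted p = 0.34 with edgeR), and H2ax, which marks DNA breaks once phosphorylated, one of -0.08 (adjusted p = 0.89 with edgeR).

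None of 24 genes for histone message processing and transcription passed, and their median slope was 0.01. At an unadjusted p under 0.05 there were 3 (2 higher, 1 lower with dose), against 13.2% of all genes in either direction. At 500 mg/kg against 125 mg/kg there were 5 (3 higher, 2 lower), against 18.3%. Slbp itself had a slope of -0.07 (adjusted p = 0.92 with edgeR). Lsm11 and Lsm10, which belong to the U7 particle that cuts histone messages, had slopes of 0.47 and -0.40 (adjusted p = 0.23 and 0.36 with edgeR). None of 24 histone chaperones and H2A or H2B modifying enzymes passed, and 2 had an unadjusted p under 0.05, 1 in each direction. At 500 mg/kg against 125 mg/kg 7 of the 24 did, all lower, against 8.4% of all genes in that direction. Rnf40, part of the H2B ubiquitin ligase, had a slope of -0.24 (adjusted p = 0.34 with edgeR). None of 22 S phase and proliferation genes passed either, and 0 had an unadjusted p under 0.05. Their median slope was -0.21, with 16 negative (48.8% of all genes). At 500 mg/kg against 125 mg/kg 3 had an unadjusted p under 0.05 (1 higher, 2 lower), against 18.3% of all genes in either direction. Pcna, the sliding clamp of DNA replication, had a slope of -0.20 (adjusted p = 0.52 with edgeR), and E2f1, a driver of S phase entry, one of -0.59 (adjusted p = 0.43).

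Markers of dividing cells were near the detection limit. Of Mki67, Top2a, Cdk1, Ccnb1 and Birc5, 2 passed the filter, none was at 0 in all mice, and together they summed to 1.90 to 9.53 CPM in vehicle mice, 2.39 to 12.9 CPM at 125 mg/kg, 3.29 to 11.7 CPM at 250 mg/kg and 2.65 to 5.33 CPM at 500 mg/kg. Mki67 had a slope of -0.34 (adjusted p = 0.84 with edgeR). Neuroblast markers (Dcx, Sox11, Sox4, Dlx2) had negative slopes in 4 of 4, and summed to 54.7 to 160.2 CPM in vehicle mice, 104 to 172 CPM at 125 mg/kg, 107 to 189 CPM at 250 mg/kg and 71.6 to 139 CPM at 500 mg/kg. Oligodendrocyte progenitor markers (Pdgfra, Cspg4, Gpr17) went the other way, with positive slopes of 0.30 to 0.42, and none passed. They summed to 105 to 151 CPM in vehicle mice and 142 to 173 CPM at 125 mg/kg. Their sums at 250 and 500 mg/kg were 109 to 199 and 162 to 218 CPM.

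Structural noncoding RNAs without a poly(A) tail had negative slopes in 14 of 15 genes (48.8% of all genes), with a median of -0.63. Of these, 2 fell (0.0441% of all genes), Rmrp (-0.87, adjusted p = 0.036 with edgeR) and Snora74a (-1.22, adjusted p = 0.036). They summed to 29461 to 77239 CPM in vehicle mice, 31941 to 53144 CPM at 125 mg/kg, 31969 to 35902 CPM at 250 mg/kg and 28321 to 39959 CPM at 500 mg/kg. Among oligodendrocyte markers, the myelin gene Mbp had a slope of 0.80 (adjusted p = 0.21 with edgeR), and averaged 3384 ± 804 CPM in vehicle mice, 3896 ± 1401 CPM at 125 mg/kg, 3406 ± 677 CPM at 250 mg/kg and 6092 ± 2444 CPM at 500 mg/kg (SD). Mog, on the myelin surface, had a slope of 0.70 (adjusted p = 0.33 with edgeR). The neuronal markers Snap25, Syt1 and Rbfox3 had negative slopes in 2 of 3, and summed to 2094 to 3525 CPM in vehicle mice, 3034 to 4185 CPM at 125 mg/kg, 2279 to 3941 CPM at 250 mg/kg and 2365 to 3281 CPM at 500 mg/kg. The choroid plexus markers Ttr, Folr1 and Kl, with negative slopes in 3 of 3, summed to 5.93 to 1156 CPM in vehicle mice, 22.9 to 601 CPM at 125 mg/kg, 46.6 to 525 CPM at 250 mg/kg and 18.6 to 249 CPM at 500 mg/kg. None of these markers was at 0, while Snora73b of the structural RNAs had no read. At 125 mg/kg against vehicle 0 of 4 neuroblast and 0 of 3 choroid plexus markers had a negative change. Of the S phase genes 12 of 22 did, and of the structural RNAs 8 of 15. The part of these RNAs and cells in the values of the histone genes was not tested.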

How the data were processed

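Raw counts per Entrez gene were deposited by the authors for 18 half-brain libraries. The authors' processing notes name STAR 2.7.5b, featureCounts, MultiQC 1.12, DESeq2 1.34.0 and GRCm38, while the strand setting and the treatment of reads with several matches are not given in the sources used here. Counts were tested with edgeR 4.0.16 in R 4.3.3 (TMM, filterByExpr by group with a minimum count of 10, quasi-likelihood F test, sex as covariate), with Benjamini-Hochberg adjustment over all 15863 genes tested and a threshold of 0.05. No mouse was left out of the main tests. Replicate mice of a group differed by more than sampling noise in all 32 pairs (chi-square per degree of freedom 9.02 to 76.9). The test scripts were tested on simulated data with straight dose lines. Counts were drawn independently for each gene, with a spread set by its level alone. No sex effect, shared reads or mice that stand apart were built in. The false shares below are therefore not error rates of the real data. Of genes called by edgeR there, 2.86% in the dose regression and 4.55% at 500 against 125 mg/kg were false. These shares were 12.8% and 15.7% with DESeq2 and 2.94% and 4.41% with limma-voom. At 125 mg/kg against vehicle edgeR recovered 0% of the genes with a set slope of 0.5 or 1 and 3.03% of those with 2. These slopes were per 500 mg/kg, so the changes set at 125 mg/kg were only a fraction of them. The shares therefore do not apply to log2 changes of 0.5, 1 or 2 at that dose.

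Members with values in every mouse are the 6 with the smallest p in the dose regression, the 4 with the highest mean CPM, any member called, and H2bc21, H2ac1 and H2bc1 for their known special expression. Members and gene lists were chosen with earlier results of these data known. Alternatives covered normalization, filters, DESeq2 1.42.0, limma-voom (limma 3.58.1), no sex covariate, each sex alone, dose as rank, the mouse tag number as a block, only the 2 groups compared, summed counts, 1 surrogate variable (sva 3.50.0) and leaving out each mouse. Leaving out G4 and G9 together was added after seeing the data. Motifs and shared stretches were searched by exact match in RefSeq GRCm38.p6 promoters and GENCODE vM21 transcripts. Stem-loops were searched in the transcripts with a pattern that allows more than 1 base at some positions, in a window just after the stop codon.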

Additional observations from a re-analysis of the deposited data

Results flagged for a closer look

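H2bc3 in the 250 mg/kg mouse G71 was far from the other mice of its group, with 4.53 CPM against 3.23 to 3.29 CPM in the other 3 mice. H2bc1 in the vehicle mouse G15 had 0.51 CPM, 4 reads, and the other 4 vehicle mice had 0. Each group of 4 or 5 mice was looked at for each named member, 40 groups in all, and chance marks about 1 in 20 of them.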

How the results depend on the processing

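Members called in the dose regression numbered 0, and 1 with at least 10 counts in every library (H2bc15) and 3 with DESeq2. When 1 mouse was left out there were between 0 and 2 (2 without G18 or G29). Calls over all genes were 46 of 15863 in the main fit and 54 of 12733 with at least 10 counts in every library. They were 229 of 23017 with DESeq2, 54 of 15836 without G18 and 55 of 15820 without G29. For any difference among the groups there were 0, with 15 under DESeq2 (540 of 23021 genes in all) and 1 with no sex covariate (H2ac22, 8 of 15863). At 500 mg/kg against vehicle there were 0, with 3 under DESeq2, and for the departure from the line 0, with 4 under DESeq2. At 500 mg/kg against 125 mg/kg there was 1, with 8 when no filter was used (49 of 23031 genes in all), 5 with at least 10 counts in every library, which removes H2ac22 (44 of 12733), 19 under DESeq2 (563 of 23020), 6 with no sex covariate (45 of 15863), 0 in males only, 0 in females only, 0 with only the 2 groups compared, 0 without G4 and G9, and between 0 and 11 when 1 mouse was left out. The cause of these changes was not tested, except that fewer mice entered some of the fits. The median over members kept its sign in 174 of 174 alternatives. Single named members turned sign: without 1 mouse in turn, the log2 change of H2bc15 at 125 mg/kg against vehicle lay between -0.040 (without G29) and 0.282 (without G25). In males only it was 0.0618 for H2aw in that comparison and 0.10 for H2bc4 at 500 mg/kg against vehicle. For H2bc21 in males it was 0.0632 in the dose regression, 0.0633 at 500 mg/kg against 125 mg/kg, 0.139 with 500 mg/kg set against vehicle, and 0.0758 with 125 mg/kg set against vehicle. With the mouse tag number as a block the slope of H2bc21 was 0.0056. The other 195 counts of called members were equal to the main count, which was 1 at 500 mg/kg against 125 mg/kg and 0 in every other test. Most of them therefore only record that no member was called. The median slope lay between -0.76 and -0.56 and the median change at 500 mg/kg against 125 mg/kg between -0.97 and -0.78 when 1 mouse was left out. No paired analysis was possible because the G numbers differ between all mice. The mouse tag numbers 43 and 46 occur in more than 1 group. With the tag number as a block the dose regression called 0 members, as the main fit did, and 0 of 15863 genes in all. In both tags the vehicle mice are female and the glyphosate mice male, so dose goes with sex inside each of them. Low counts limit H2ac22 and H2bc15, with 9 to 84 and 10 to 86 reads in a mouse.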
